A study of Homo sapiens with 36 samples.

Results

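FBXW7, the gene deleted in part in the knockout (KO) line of this study, was followed as a transcript across 8 groups of HCT-116 libraries. HCT-116 is a human colorectal carcinoma line. The gene was chosen by its identifier, ENSG00000109670.17, as 1 of 62757 genes listed and 1 of 12356 that passed the filter on low counts, and it was picked because its counts were higher after oxaliplatin (OXPT) in KO cells. That contrast is therefore given as a description and carries no test. Polyadenylated RNA was sequenced from 18 KO and 6 WT libraries with settled groups, 3 libraries per group, all of the same parental line in the same culture medium. OXPT, a platinum drug that crosslinks DNA, was given at 50 µM for the last 24 h, and untreated cells (UNT) received the solvent.

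KO cells (FBXW7-/-) were transfected for 48 h with a control esiRNA (esiCT) or an esiRNA pool against HDAC4 (esiHDAC4), or received #11, a PROTAC degrader directed at HDAC4, together with esiCT. Each of these 3 KO states was measured UNT and with OXPT. For #11, the label entries of the same libraries give either 1 µM or 10 µM. The 6 WT libraries are UNT or OXPT, and their titles name a control siRNA where their treatment entries name esiHDAC4, so their silencing is not settled, and line and silencing cannot be told apart in a comparison of WT with KO. A further 12 WT libraries carry entries that contradict each other on OXPT and enter no comparison. Both lines came from a vendor and were checked by Sanger sequencing. Whether the KO line is 1 clone is not stated. The deletion is small beside the transcript, so a count over the whole gene is no readout of it, and FBXW7 counts cannot serve as a check of the KO labels.

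FBXW7 is the substrate receptor of an SCF ubiquitin ligase. Its F-box binds SKP1, which joins it to CUL1 and RBX1, and its WD40 domain holds proteins that carry a phosphorylated degron, often one written by GSK3. MYC, cyclin E, JUN and NOTCH1 are among its best known substrates, and the gene is frequently mutated in colorectal cancer. It is transcribed from several first exons, whose protein isoforms sit in different compartments of the cell.

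FBXW7 lies on chromosome 4, minus strand, at 152320544 to 152536092 (GRCh38), a body of 215549 bp with 11293 bp of exon. GENCODE 44 lists 21 transcripts for it, 12 of them protein coding. Of the 21, 11 start within 1.1 kb of the most upstream start and 10 start further downstream. A gene count adds all of them. RefSeq (GRCh38.p14) gives promoter windows for 4 starts, and the 250 bases upstream of 3 of them are shown, minus strand and 5′ to 3′ with CG dinucleotides in capitals, because these are the starts that the count cannot separate.
Start 1, chr4:152536093-152536342: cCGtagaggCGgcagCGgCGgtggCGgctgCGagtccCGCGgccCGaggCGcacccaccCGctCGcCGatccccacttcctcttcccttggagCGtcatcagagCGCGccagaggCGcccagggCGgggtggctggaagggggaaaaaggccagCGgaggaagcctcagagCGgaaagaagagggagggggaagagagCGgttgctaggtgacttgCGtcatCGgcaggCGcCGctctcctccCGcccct
Start 3, chr4:152382530-152382779: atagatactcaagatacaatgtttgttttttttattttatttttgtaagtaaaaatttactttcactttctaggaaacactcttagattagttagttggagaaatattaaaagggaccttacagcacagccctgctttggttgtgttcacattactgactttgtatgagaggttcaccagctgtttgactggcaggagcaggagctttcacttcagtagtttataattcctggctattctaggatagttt
Start 4, chr4:152352827-152353076: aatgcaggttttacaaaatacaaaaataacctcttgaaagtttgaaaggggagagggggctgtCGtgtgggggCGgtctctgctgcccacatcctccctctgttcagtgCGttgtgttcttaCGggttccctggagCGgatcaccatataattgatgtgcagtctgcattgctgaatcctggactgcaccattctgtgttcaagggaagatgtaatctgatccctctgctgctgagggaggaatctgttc
The most upstream window held 70.4% G and C with 26 CG dinucleotides, the window of start 3, which lies 154 kb further downstream, held 34.4% with 0, and that of start 4, at 183 kb, held 49.2% with 5. Among all 35116 promoter stretches of the same length, 80.1%, 4.82% and 30.3% had a lower G and C content than these windows. The first is thus a CpG-rich start and start 3 an AT-rich one. The remaining window, of start 2, lies 0.851 kb from the first and held 77.2% G and C. Both strands were searched for the AP-1 motif TGANTCA. It matched in 6.57% of all stretches and in 0 of the 4 FBXW7 windows, which says only that these letters are not in these windows.

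The primers with which the study measured FBXW7 by RT-qPCR are shown because they read fewer transcripts than the count does. Capitals mark the 4 bases of the forward primer that lie beyond an exon junction.
FBXW7_RT_FW: cgcggctcttttctaaaagtAATG
FBXW7_RT_RV: cagagagcctccagttcgtc
The forward primer joined 152534941 to 152534960 with 152411869 to 152411872 and matched 2 of the 21 transcripts, FBXW7-204 and FBXW7-220. The reverse primer, at 152411747 to 152411766, matched 10. Both were found together in 2 transcripts and neither in 11, among them FBXW7-202 and FBXW7-203, the protein-coding transcripts of starts 3 and 4. Counts and this assay thus cover different sets of FBXW7 transcripts.

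Depth was between 10725966 and 20527222 counts on genes per library (median 14510758), with 7.74% to 22.3% of reads unmapped. KO esiCT OXPT library 3 stood apart, with the highest unmapped share and the lowest TMM normalization factor, 0.789. Over the 8 libraries of each number, the median share of counts on the single most abundant gene was 1.13% for number 3, against 1.69% and 1.71% for numbers 1 and 2, although both #11 groups went against this order and KO #11 OXPT library 3 held 2.10%. In WT UNT library 3, CDKN1A, a DNA damage response gene that codes for the cell cycle inhibitor p21, stood at 1191 CPM (library-size scaled counts, CPM, here normalized over all 36 libraries), against 279 and 365 CPM in the other two WT UNT libraries, and in WT OXPT it stood at 3022 to 4606 CPM. For this gene WT UNT library 3 thus lay between the other WT UNT libraries and the WT OXPT libraries. The library titled WT siHDAC4 UNT 3, without a settled group, stood at 1204 CPM. The cause was not tested. WT OXPT library 3 had the lowest share of counts on the most abundant gene, 0.814%. Its share of mapped reads that fell on no gene, 2.93%, was also the lowest of the 24 libraries. The WT comparisons of FBXW7 are given with and without the libraries numbered 3. Epithelial markers were present: 7 of 9 had a median of at least 1 CPM, EPCAM (262 CPM), CDH1 (73.8) and CDX2 (28.3) among them, while VIL1 and CDX1 were near 0. Of 7 markers of leukocytes, endothelium, fibroblasts and hepatocytes, 6 never passed 0.787 CPM; the exception, COL1A1, had a median of 42.0 CPM in the same libraries in which COL1A2 and DCN had a median of 0.

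FBXW7 was counted in all 24 libraries, with 184 to 906 reads. In KO esiCT cells, 226, 277 and 274 reads were counted in the UNT libraries 1, 2 and 3, and 694, 619 and 412 in the OXPT libraries. Normalized, UNT libraries stood at 15.3, 17.1 and 17.9 CPM, and OXPT libraries at 33.8, 44.4 and 48.7 CPM. The OXPT libraries were all higher than the UNT libraries and the groups did not overlap. Group means were 16.8 ± 1.33 CPM and 42.3 ± 7.67 CPM (SD, n = 3), a log2 fold change of 1.33 with a standard error of 0.31. The order of the OXPT libraries differs between the scales: library 3 had the fewest reads and the highest CPM, beside the lowest total and normalization factor. Without the libraries numbered 3 the log2 fold change was 1.28.

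With HDAC4 silenced, KO UNT libraries stood at 24.0, 25.6 and 20.6 CPM (471, 461 and 280 reads) and KO OXPT libraries at 54.6, 50.7 and 28.3 CPM (906, 844 and 347 reads). Libraries 1 and 2 gave the highest FBXW7 levels of the series' settled groups with OXPT, while library 3 was just above the highest UNT library; the groups did not overlap. The log2 fold change was 0.93 with a standard error of 0.31, and 1.09 without the libraries numbered 3. With #11, UNT libraries stood at 15.4, 13.8 and 17.1 CPM (210, 295 and 240 reads) and OXPT libraries at 38.2, 32.6 and 28.1 CPM (491, 439 and 353 reads). Here too the groups did not overlap, and the log2 fold change was 1.09 (standard error 0.31). Over all KO cells, the 9 OXPT libraries lay between 28.1 and 54.6 CPM and the 9 UNT libraries between 13.8 and 25.6 CPM. This separation is the pattern for which the gene was chosen.

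The same measure in WT cells took no part in the choice. WT UNT libraries stood at 16.8, 23.3 and 22.6 CPM (211, 444 and 231 reads) and WT OXPT libraries at 42.0, 33.6 and 13.4 CPM (783, 506 and 184 reads). Libraries 1 and 2 were higher with OXPT than every UNT library, and OXPT library 3 was the lowest of all 24, so the groups overlapped. FBXW7 did not pass the test in WT cells: the fold change was 1.42 (95% interval 0.937 to 2.15), a log2 fold change of 0.51 with a standard error of 0.31 and an edgeR adjusted p of 0.333. An exact permutation test of the 6 log2 CPM values, two-sided, gave p = 0.50, where 0.10 is the smallest value that 3 against 3 libraries allow. The permutation took no account of the replicate numbers and could not have reached 0.05, so it adds nothing to the edgeR test. The edgeR result rested on OXPT library 3. Leaving out WT UNT library 3 alone, the one with high CDKN1A, gave a log2 fold change of 0.56, which did not pass. Without WT OXPT library 3 the log2 fold change was 0.85 (adjusted p = 0.0453), and without the libraries numbered 3 in every group it was 0.93 (adjusted p = 0.00396), both past the threshold; without the libraries numbered 1 it was 0.05 (adjusted p = 0.960). Over the 35 alternatives the adjusted p ranged from 0.00396 to 0.960, and the sign was positive in 35.

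**Figure D1:**
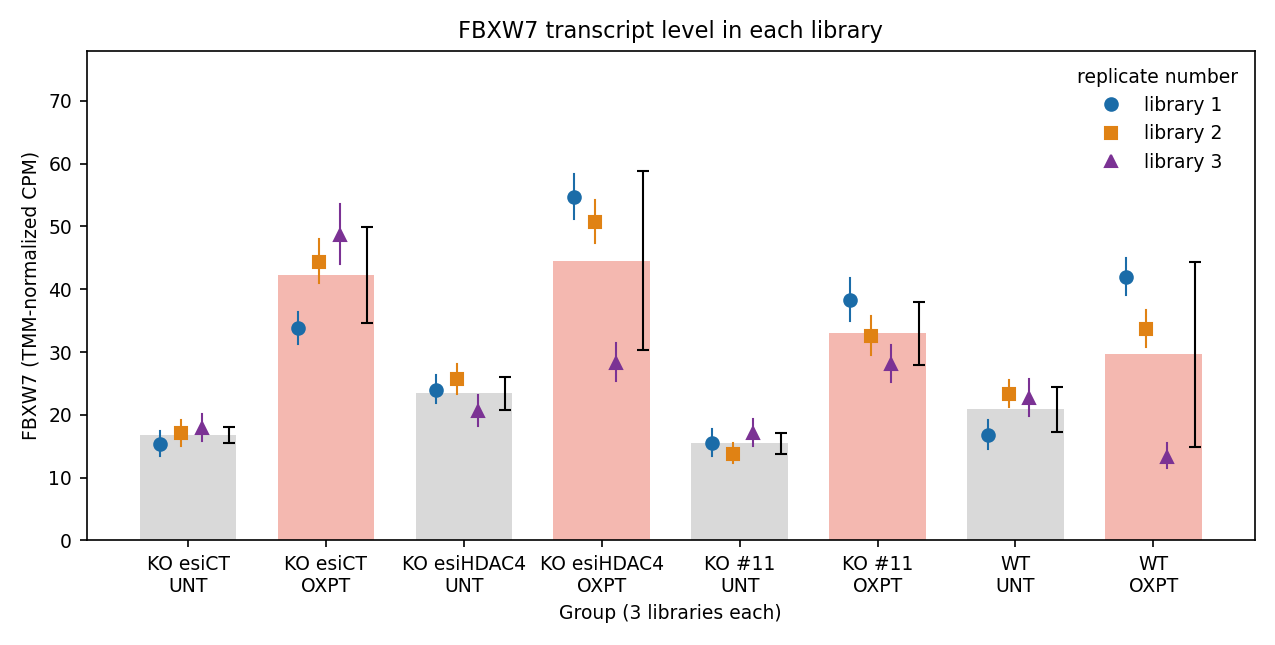
FBXW7 level in TMM-normalized CPM for each of the 24 libraries by group; symbols give the replicate number, thin vertical lines the 95% counting interval, bars the group mean and black brackets the SD over 3 libraries. KO OXPT libraries sit between 28.1 and 54.6 CPM, above the KO UNT libraries, and WT OXPT spreads from 13.4 to 42.0 CPM.

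Counting error was small beside the spread in WT OXPT and KO esiHDAC4 OXPT. In WT OXPT library 3, 184 reads give an interval of 11.5 to 15.4 CPM, and in KO esiHDAC4 OXPT library 1, 906 reads give 51.1 to 58.3 CPM. The SD of log2 CPM was 0.87 among WT OXPT libraries and 0.52 among KO esiHDAC4 OXPT libraries, against 0.08 and 0.06 from counting alone. Among UNT groups the SD was 0.12 to 0.26, against 0.07 to 0.09 from counting. In KO esiCT UNT it was 0.12 against 0.09, so counting made up much of it there. FBXW7 thus varied most between libraries in these 2 OXPT groups. Intervals cover counting error only.

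Taken by replicate number, OXPT minus UNT of log2 CPM was 1.13, 1.37 and 1.43 in KO esiCT cells, 1.18, 0.98 and 0.46 in KO esiHDAC4 cells, 1.30, 1.23 and 0.71 in KO #11 cells and 1.32, 0.53 and -0.76 in WT cells, for numbers 1, 2 and 3. The 9 KO pairs carry the rise for which the gene was chosen, so only the WT pairs are free of that choice. FBXW7 was higher with OXPT in 11 of the 12 pairs, and the exception was number 3 of WT. In that pair MDM2, a DNA damage response gene that codes for a ubiquitin ligase, was also lower with OXPT (-0.31), where the other 11 pairs lay between 1.64 and 2.83. CDKN1A was higher in 12 of 12 pairs, by 1.98 in number 3 of WT and by 2.27 to 3.44 elsewhere. Among all 12356 genes, FBXW7's difference stood above 94.0% to 97.0% of genes in the pairs of KO esiCT cells. For numbers 1, 2 and 3 it stood above 96.8%, 92.8% and 71.8% in KO esiHDAC4 cells. In KO #11 cells these ranks were 96.6%, 96.7% and 90.9%. The choice of the gene favours a high rank in KO cells. In the pairs of WT cells it stood above 97.5%, 77.7% and 22.6% of genes. The part of the library itself in this difference was not tested.

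**Figure D2:**
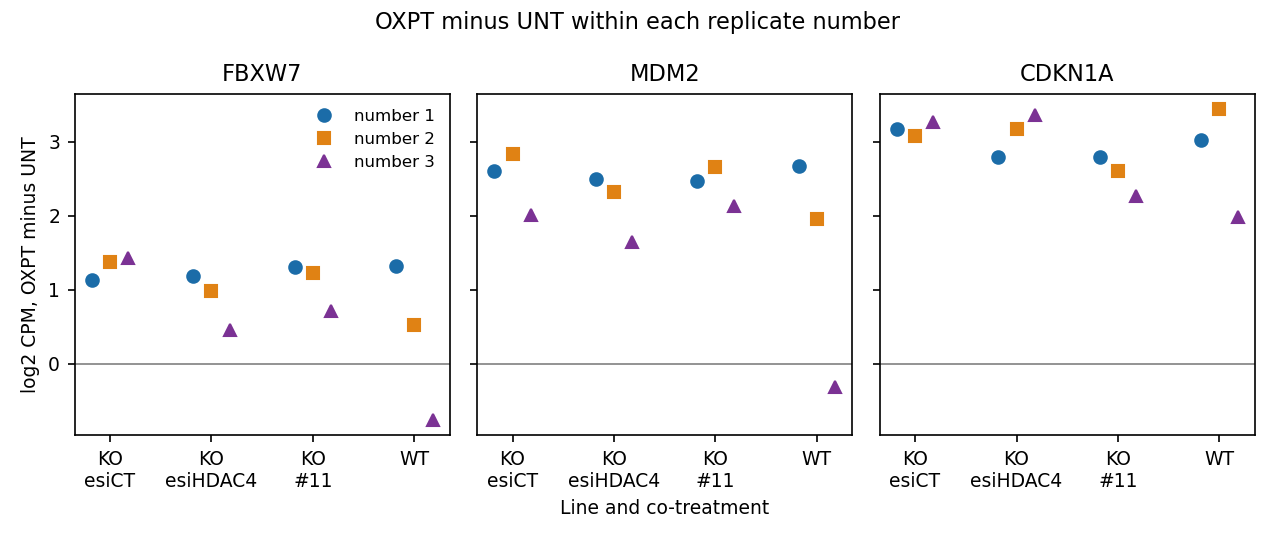
OXPT minus UNT in log2 CPM within each replicate number for FBXW7, MDM2 and CDKN1A, by line and co-treatment; symbols give the number. Number 3 of WT is the only pair below 0 for FBXW7 (-0.76) and for MDM2 (-0.31), while CDKN1A is above 0 in 12 of 12 pairs.

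By group mean, the order from the highest level was KO esiHDAC4 OXPT (44.6 ± 14.2 CPM), KO esiCT OXPT (42.3 ± 7.67), KO #11 OXPT (33.0 ± 5.09), WT OXPT (29.7 ± 14.7), KO esiHDAC4 UNT (23.4 ± 2.58), WT UNT (20.9 ± 3.57), KO esiCT UNT (16.8 ± 1.33) and KO #11 UNT (15.4 ± 1.64; SD, n = 3 each). Every group overlapped its neighbour in this order, so no neighbouring pair was separated by its libraries. The 4 OXPT groups stood above the 4 UNT groups by their means.

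KO and WT cells were compared within each treatment, to ask whether the transcript is still made when the gene is partly deleted. KO esiCT UNT cells held 0.802 times the FBXW7 level of WT UNT cells (95% interval 0.529 to 1.22, adjusted p = 0.9998), with overlapping groups, and 0.811 times that level without the libraries numbered 3 (adjusted p = 0.818). The transcript was therefore detected in KO cells at a level that could not be told from WT at this precision. A decrease to below 0.529 lay outside the interval, but KO UNT libraries also entered the contrast that chose the gene. Choosing a gene for its rise with OXPT favours low UNT values, so this test and interval are not free of the choice. Under OXPT the log2 difference of KO esiCT from WT was 0.51 with a standard error of 0.30, given without a test because these KO libraries entered the choice of the gene. It depended on the libraries: 0.042 without those numbered 3 and 0.98 without those numbered 1. The OXPT response, in which the KO part chose the gene, was higher in KO esiCT than in WT by 0.83 on the log2 scale, with a standard error of 0.43, and this difference rested on single libraries: it was 0.34 without the libraries numbered 3, 0.48 without WT OXPT library 3 alone and 1.35 without the libraries numbered 1.

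HDAC4 silencing and #11 were compared with esiCT in UNT KO cells. KO UNT libraries also entered the contrast that chose the gene, so these tests are not free of that choice. Silencing gave a FBXW7 level 1.40 times that of esiCT (95% interval 0.921 to 2.12), with the 3 silenced libraries above the 3 control libraries, but the test was not passed (adjusted p = 0.9997; 0.259 without the libraries numbered 3). In these libraries 1 of 12356 genes was called (0.00809%), and HDAC4 itself stood at 10.8 ± 3.45 CPM against 19.0 ± 5.41 CPM, a log2 fold change of -0.82 that did not pass (adjusted p = 0.561). With #11 the FBXW7 level was 0.92 times that of esiCT (95% interval 0.607 to 1.40, adjusted p = 0.913), with overlapping groups. Under OXPT the log2 difference from KO esiCT was 0.08 with HDAC4 silenced (standard error 0.30) and -0.36 with #11 (standard error 0.30), both with overlapping groups. The OXPT responses themselves differed from that of KO esiCT cells by -0.40 with HDAC4 silenced (standard error 0.43) and by -0.24 with #11 (standard error 0.43), each smaller than its standard error. These values carry no test, and KO esiHDAC4 OXPT against KO esiCT OXPT turned negative without the libraries numbered 1 (-0.23).

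Strand and overlap limits of the count were read from the separate strand columns. Forward and reverse columns held nearly equal totals in every library (ratio 1.004 to 1.016), so the counts do not tell the strands apart. For FBXW7 they held 94 to 483 and 96 to 474 reads. FBXW7-AS1, on the plus strand at 152337655 to 152338098, shares 127 exonic bases with FBXW7, and ENSG00000287555, on the plus strand at 152448275 to 152513788, shares 117. MIR3140 lies in an intron and was at 0 in all libraries. Reads in the shared bases go uncounted in the unstranded column: 0% to 6.12% of the FBXW7 strand counts per library were left out (median 3.55%). By group the share was 4.31% in KO esiCT UNT and 2.10% in KO esiCT OXPT, and 4.01% in WT UNT and 2.77% in WT OXPT. FBXW7-AS1 itself held 2 unstranded reads in all 24 libraries together, and 157 forward and 163 reverse reads that fell almost wholly where the genes overlap. Reads of FBXW7 and of its antisense gene cannot be told apart there. In the reverse-strand column the FBXW7 log2 fold change was 1.29 in KO esiCT and 0.59 in WT cells, and in the forward-strand column 1.23 and 0.36.

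Of 32 other annotated genes within 500 kb of FBXW7 on chromosome 4, 2 passed the filter. Neither was called with OXPT in KO esiCT or WT cells, where 11.3% and 10.7% of all genes were called, so 2 genes say nothing about the locus as a whole. ARFIP1, which codes for a partner of ARF and RAC GTPases and lies 243845 bp away, had log2 fold changes of -0.26 in KO esiCT and -0.15 in WT cells (adjusted p = 0.688 and 0.838). FHDC1, a formin homology gene 400231 bp away, had -0.66 and -0.43 (adjusted p = 0.366 and 0.595). MIR4453HG, a noncoding gene that starts 172 bp from the FBXW7 start on the opposite strand, held at most 76 reads in a library and did not pass the filter.

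Long genes were on the whole lower with OXPT, and FBXW7, with its 215549 bp, was not among the lower ones. Among 2224 tested genes with a body of at least 100000 bp, the median log2 fold change was -0.30 in KO esiCT, -0.36 in KO esiHDAC4, -0.40 in KO #11 and -0.48 in WT cells, against 0.01, 0.02, -0.002 and -0.06 over all genes. FBXW7's fold change stood above that of 98.6% of the long genes in KO esiCT, 97.7% in KO esiHDAC4, 98.5% in KO #11 and 95.5% in WT cells. A high rank in KO cells follows from choosing the gene for its rise there, and only the WT rank is free of that choice. Without the libraries numbered 3 the medians of the long genes were -0.20, -0.24, -0.36 and -0.42, and FBXW7 stood above 98.3%, 98.0%, 98.4% and 97.8% of them.

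The genes most like FBXW7 were found by Pearson's correlation of log2 CPM over the 24 libraries, among 12073 genes with a symbol. They were MDM2 (r = 0.92), CALD1 (0.90), TIGAR (0.90), CCDC43 (0.88) and DUXAP8 (0.88). CALD1 codes for the actin regulator caldesmon, TIGAR for an enzyme of sugar phosphate metabolism, and DUXAP8 is a pseudogene transcript whose reads may be shared with copies. The 24 libraries differ in OXPT state and depth, and r includes these differences, so these are descriptions. Of them 18 are KO libraries, in which FBXW7 was chosen for its rise, and this favours genes that are higher with OXPT there. Over deviations from the group means r was 0.78, 0.84, 0.87, 0.69 and 0.80. MDM2 differed between OXPT and UNT by 2.58 on the log2 scale in KO esiCT and 1.84 in WT cells, TIGAR by 1.28 and 0.31, and CALD1 by 0.94 and 0.36. In WT OXPT, MDM2 ranged from 54.1 to 364 CPM and TIGAR from 4.72 to 13.0 CPM over the 3 libraries. PAQR4 (r = -0.89) and P4HB (r = -0.86), the latter an enzyme that forms disulfide bonds in the endoplasmic reticulum, were least like it. In all, 3 genes had r over 0.9 and 32 over 0.8, and the median over all genes was 0.03.

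Other genes of the pathway were taken from 4 lists written from general knowledge. The 14 parts of the SCF core and its NEDD8 cycle were all tested, and 0 were called by edgeR in KO esiCT cells (0 in WT), where 11.3% of all genes tested were called (10.7% in WT); over all genes 3221 had an unadjusted p under 0.05 (3056 in WT) and DESeq2 called 1859 (1721). The median log2 fold change of the list was 0.20 in KO esiCT cells, with a range of -0.61 to 1.21, and -0.002 in WT cells. CUL1, the scaffold of the ligase, had a log2 fold change of -0.07 in KO esiCT cells and RBX1, its RING subunit, 0.53 (adjusted p = 0.904 and 0.336). NEDD8, the ubiquitin-like protein that activates cullins, had the highest value, 1.21 (adjusted p = 0.110). In KO esiCT cells NEDD8 stood at 82.5 ± 77.8 CPM with OXPT against 35.6 ± 2.98 CPM UNT (SD, n = 3). RBX1 stood at 138 ± 86.1 against 95.8 ± 12.2 CPM, so the OXPT libraries differed widely for both genes.

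Of 9 other FBXW family genes, 7 passed the filter and 0 were called by edgeR in KO esiCT or WT cells, which for so few genes is near the 11.3% and 10.7% called among all genes. BTRC and FBXW11, the receptors of the beta-TrCP ligases, had log2 fold changes of -0.27 and -0.12 in KO esiCT cells, and FBXW4 had the lowest value in WT cells, -1.06 (adjusted p = 0.0936). FBXW10 and FBXW12 were near 0. Per kb of exon, FBXW7 had a median level of 2.20 CPM and was the 8th of these 10 genes, behind FBXW8 (2.38) and well behind FBXW5 (54.9). FBXW7 is thus one of the lower family transcripts in this line on this per-length scale. The exon length used joins the exons of all annotated transcripts of a gene. For FBXW7 this is 11293 bp, while its longest single transcript has 5653 bases.

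Of 13 genes known to control FBXW7 or its degron reading, 12 passed the filter and 0 were called by edgeR in KO esiCT or WT cells, beside 11.3% and 10.7% of all genes. GSK3B, the degron kinase, had a log2 fold change of 0.24 in KO esiCT and 0.004 in WT cells, and CEBPD, a transcription factor known to repress FBXW7, 0.94 and -0.08 (adjusted p = 0.115 and 0.926). In KO esiHDAC4 cells, where 12% of all genes were called, 0 were called, CEBPD having 1.13 (adjusted p = 0.0543). CEBPD was called higher there with the replicate number as a block, by DESeq2 and without the libraries numbered 3. USP28, the deubiquitinase that opposes FBXW7, had -0.51 and -0.64 in KO esiCT and WT cells. HES5, which is known to repress FBXW7 downstream of Notch, had a median of 0 CPM.

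Genes whose proteins FBXW7 marks for degradation were read as transcripts only. Of 15 listed, 14 passed the filter. The list includes HDAC4, which the study of these libraries itself reports as an FBXW7 target, and at which esiHDAC4 and #11 were directed. In KO esiCT cells 4 were called lower with OXPT (5.08% of all genes were): AURKA, the mitotic kinase (log2 fold change -1.72, adjusted p = 2.67e-05), HDAC4 (-1.56, 0.000287), SREBF1 (-0.90, 0.00762) and SREBF2 (-0.80, 0.0437), the last pair being the regulators of lipid synthesis. In WT cells 3 were called lower, beside 5.6% of all genes: AURKA (-1.72, adjusted p = 3.01e-05), HDAC4 (-1.29, 0.00146) and SREBF1 (-0.66, 0.0450). Without the libraries numbered 1 the counts were 1 and 1, and without those numbered 3 they were 4 and 4 lower, beside 2 higher in KO esiCT. AURKA kept its call in both lines under 35 of 35 alternatives. SREBF2 in KO esiCT cells lost its call without any 1 of the 3 UNT libraries, without OXPT library 1 or 2, and without KO esiHDAC4 UNT 3, KO #11 UNT 1, KO #11 OXPT 1 or 2, or WT UNT 1. SREBF1 in WT cells lost its call without any 1 of the 3 UNT libraries, without OXPT library 1 or 2, and without KO esiCT OXPT 2, KO esiCT UNT 1 or 2, KO esiHDAC4 UNT 3, KO #11 UNT 1 or KO #11 OXPT 2. JUN, which codes for a subunit of AP-1, had 1.44 in KO esiCT cells (adjusted p = 0.102) and was called higher there with the replicate number as a block and without the libraries numbered 3. In KO esiHDAC4 cells 3 were called lower and 1, JUN, higher (1.91, adjusted p = 0.0323), where 5.54% of all genes were called lower and 6.44% higher. In KO #11 cells, where 9.51% of all genes were called and 3.57% called lower, 4 were called lower, JUN (-1.94, adjusted p = 0.0331), SREBF1, KLF5 and AURKA. Without the libraries numbered 3 the #11 counts were 8 lower and 1 higher. With esiHDAC4, JUN lost its call without OXPT library 2 or 3 or any 1 UNT library, and SREBF1 without OXPT library 1 or 2 or UNT library 1 or 3. With #11, JUN lost its call without OXPT library 1 or 2 or any 1 UNT library, SREBF1 without OXPT library 3 or UNT library 1 or 2, and AURKA without library 1 or 2 of either group. These calls were also lost without the libraries numbered 1 or 2, as were SREBF2 in KO esiCT and SREBF1 in WT cells. Without a count filter SREBF1 lost its call in WT and with esiHDAC4, and AURKA with #11. In the compared groups alone SREBF2 in KO esiCT and SREBF1 in WT cells lost theirs. MYC and CCNE1, which codes for cyclin E1, did not pass in any of these 4 contrasts.

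Between the lines, MYC was the single member of the substrate list called. It was lower in KO esiCT than in WT, UNT (111 ± 23.1 against 285 ± 48.9 CPM, log2 fold change -1.36, adjusted p = 0.00237; 0.291% of all genes were called, 0.283% lower) and with OXPT (137 ± 23.1 against 327 ± 54.4 CPM, -1.26, 0.00784; 0.138% called, 0.129% lower). Both calls were lost without the libraries numbered 1 or 2 and in the compared groups alone, and the call with OXPT also without KO esiCT OXPT library 2 or 3 or WT OXPT library 3. The protein was not measured here. With #11 in UNT KO cells, JUN (253 ± 14.9 against 37.7 ± 7.39 CPM, log2 fold change 2.75, adjusted p = 0.0415) and KLF5 (1.20, 0.0390) were higher than with esiCT, where 0.51% of all genes were called and 0.38% called higher. Leaving out any 1 of the 6 libraries compared ended both calls, and so did KO esiHDAC4 OXPT 2, KO esiHDAC4 UNT 1, 2 or 3, KO #11 OXPT 2 or WT OXPT 2, and for JUN also KO #11 OXPT 1. Both calls also ended without the libraries numbered 1 or 2. The JUN log2 fold change lay between 2.65 and 2.92 and that of KLF5 between 1.06 and 1.42 over 35 alternatives, with adjusted p up to 0.999. Under OXPT, HDAC4 was higher with #11 than with esiCT (16.5 ± 2.00 against 6.45 ± 0.91 CPM, 1.36, 0.0383; 0.121% called, 0.105% higher). This call was kept in 15 of 34 alternatives, with log2 fold changes of 1.24 to 1.52 over the 34. It was lost in both strand columns, in the compared groups alone, without the libraries numbered 1 or 2, and without any 1 of the 6 libraries compared. Leaving out KO esiCT UNT 1, KO esiHDAC4 UNT 1 or 3, KO #11 UNT 1, 2 or 3, WT OXPT 1 or WT UNT 1 also ended it. Without the libraries numbered 3, 4 substrates were called higher and 2 lower with #11 in UNT cells, and 1 higher and 4 lower under OXPT.

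**Figure D3:**
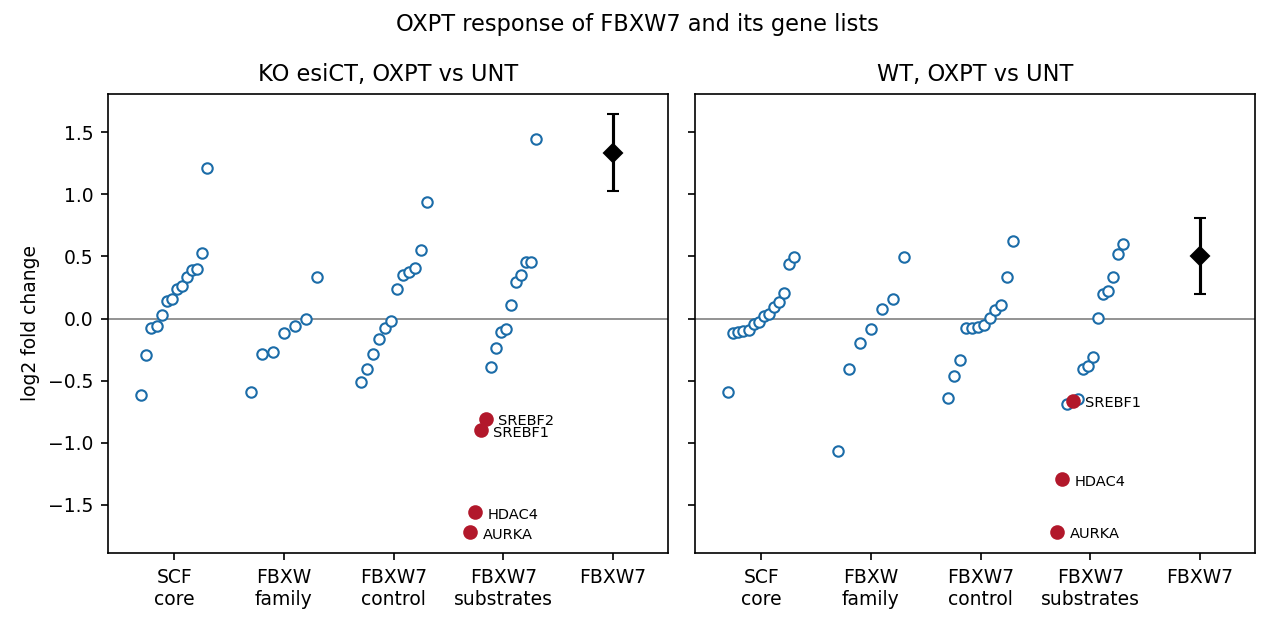
Log2 fold change of OXPT against UNT for the tested members of 4 gene lists and for FBXW7 (diamond, with standard error), in KO esiCT cells on the left and WT cells on the right. Filled red points were called and named, open points were not; the called members, 4 on the left and 3 on the right, all belong to the substrate list and lie below 0.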

How the data were processed

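The authors deposited 1 table per library of raw read counts per gene, in unstranded, forward and reverse columns, not normalized. The submitters' processing notes name Trimmomatic 0.39, STAR 2.7.11a and hg38. The annotation version was not given in the sources used here. A stranded kit was used, but forward and reverse totals were nearly equal, so the unstranded column was the main one. The study's methods describe another route, salmon and DESeq2, so what it tested came from other counts than these.

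FBXW7, the gene lists and the settings were chosen with earlier results of these data known. Identifiers were matched to GENCODE 44 (62130 with and 62686 without version, of 62757). Counts were fitted in R 4.3.3 with edgeR 4.0.16 (TMM, quasi-likelihood F test, 1 coefficient per group, 24 libraries), on genes with a mean count of at least 64 in a group. A gene was called at a fold over 1.5 and a p under 0.05 after adjustment by Benjamini and Hochberg over all genes tested. Standard errors are approximate, and log2 CPM of single libraries used a prior count of 2. Nothing states separate cultures, so p-values measure the spread between libraries. Same-group libraries differed beyond sampling noise (chi-square per degree of freedom 8.31 to 224 over 24 pairs). Same-numbered libraries deviated together across genes (every correlation over 0.1) in 8 of 10 comparisons, which pairs them there; the labels only give the number. The fit was tested on simulated data before use. The genes named besides list members are those that overlap FBXW7 or lie within 500 kb and passed the filter, and the 5 most and 2 least correlated. Alternatives were RLE normalization, no count filter or 64 in every group, DESeq2 1.42.0, the compared groups alone, a replicate block, either strand column and each library left out; leaving out all libraries of 1 number was added after the data were seen. The values of 1 member of the list of FBXW7 regulators are not reported here.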

Additional observations from a re-analysis of the deposited data

Results flagged for a closer look

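In 5 of the 12 WT libraries without a settled group, FBXW7 stood above 22.8 CPM, the highest WT UNT library when all 36 libraries are normalized together. They are titled WT PROTAC11 OXPT 2 (24.4 CPM), WT siHDAC4 OXPT 1 (46.0 CPM), WT siHDAC4 OXPT 2 (48.7 CPM), WT siHDAC4 UNT 1 (24.9 CPM) and WT siHDAC4 UNT 2 (28.0 CPM). Their treatment entries contradict these titles on OXPT, so no group can be read from them, and the values were not tested.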

How the results depend on the processing

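The 10 FBXW7 fold changes, 10 counts of genes called and 8 counts of list members were recomputed under 35 alternatives each. Of 350 FBXW7 values, 341 kept their direction and their side of the threshold or moved by less than the spread between libraries. The log2 fold change with OXPT ranged from 1.22 to 1.45 in KO esiCT, from 0.77 to 1.16 in KO esiHDAC4 and from 0.94 to 1.23 in KO #11 cells. In WT cells it passed the threshold without the libraries numbered 3 (0.93) and without WT OXPT library 3 alone (0.85), and leaving out 1 library each gave 0.18 to 0.85. KO esiCT OXPT against WT OXPT was 0.042 without the libraries numbered 3 and 0.98 without those numbered 1. KO esiHDAC4 OXPT against KO esiCT OXPT turned to -0.23 without the libraries numbered 1 and to -9.0e-05 without those numbered 2, and 3 of 24 fits that leave out 1 library reversed it (-0.059, -0.086 and -0.019; range -0.086 to 0.33). The cause was not tested.

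Counts of genes called moved far more. With OXPT, KO esiCT, KO esiHDAC4, KO #11 and WT cells gave 1398, 1480, 1175 and 1322 genes, 2178, 2250, 2847 and 2614 without the libraries numbered 3, 160, 159, 74 and 180 without those numbered 1, and 242, 204, 168 and 179 without those numbered 2; fewer libraries enter these fits. A mean of 64 in every group gave 907, 943 and 836 in KO esiCT, KO esiHDAC4 and WT, and the compared groups alone 553, 2635 and 84 in KO esiCT, KO #11 and WT. Leaving out 1 library gave 785 to 1880, 816 to 1911, 567 to 1494 and 850 to 2105.

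KO esiCT UNT against WT UNT gave 36 genes, 322 without a filter, 4 with 64 in every group, 117 by DESeq2, 1 in the compared groups alone, 75 with the replicate block, 23 and 22 in the reverse and forward columns, 5 and 4 without the libraries numbered 1 and 2, and 14 to 89 without 1 library. KO esiCT OXPT against WT OXPT gave 17, and 91, 3, 30 and 0 under the first 4 of these, 11 in the reverse column, 37, 0 and 0 without the libraries numbered 3, 1 and 2, and 5 to 23 without 1 library. esiHDAC4 against esiCT gave 1 UNT, 2 with RLE, 3 without a filter, 40 by DESeq2, 0 in the compared groups alone, 4 with the block, 2 and 4 in the reverse and forward columns, 72, 0 and 0 without the libraries numbered 3, 1 and 2, and 0 to 3 without 1 library; with OXPT it gave 0 (380 at an unadjusted p under 0.05), 6 without a filter, 9 by DESeq2 and 1 without the libraries numbered 3. #11 against esiCT gave 63 UNT, 480 without a filter, 409 by DESeq2, 566 in the compared groups alone, 397 with the block, 1816, 0 and 0 without the libraries numbered 3, 1 and 2, and 0 to 338 without 1 library. With OXPT it gave 15, 367 without a filter, 0 with 64 in every group, 126 by DESeq2, 0 in the compared groups alone, 132 with the block, 2 in the forward column, 1438, 0 and 0 without the libraries numbered 3, 1 and 2, and 1 to 27 without 1 library. Correlations in the 2 comparisons of #11 with esiCT were between -0.25 and 0.13, so the numbers do not pair those libraries.

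Among list members called with OXPT, the SCF core gave 1 in KO esiCT without a filter, the FBXW family 1 in WT without a filter and by DESeq2, and the substrates 1 and 2 in KO esiCT without the libraries numbered 1 and 2, and in WT 1 in the compared groups alone and without those numbered 1 or 2. Leaving out 1 library gave 0 to 1 for the SCF core in both lines, the FBXW family in WT and the control list in KO esiCT, and 3 to 5 and 2 to 3 for the substrates. With the replicate block the FBXW7 log2 fold change was 1.34 in KO esiCT and 0.46 in WT cells, and it changed no call on FBXW7. In KO esiCT cells it added JUN, higher, to the 4 substrates called, and the epithelial markers called went from 2 to 3 in KO esiCT and from 1 to 3 in WT cells. Between 184 and 906 reads lie behind each FBXW7 value. In the OXPT groups depth limits it less than the spread between libraries does. In KO esiCT UNT counting alone came near that spread (0.09 against an SD of log2 CPM of 0.12).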

Other observations

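Over the 12 WT libraries without a settled group, FBXW7 held 149 to 941 reads and ranged from 14.1 to 48.7 CPM, with a median of 20.9 CPM. The 3 libraries titled WT PROTAC11 stood at 17.4, 21.5 and 20.2 CPM, those titled WT PROTAC11 OXPT at 20.4, 24.4 and 14.2 CPM, those titled WT siHDAC4 UNT at 24.9, 28.0 and 14.1 CPM, and those titled WT siHDAC4 OXPT at 46.0, 48.7 and 17.0 CPM, in the order of their numbers. CDKN1A in the same order stood at 1174, 924 and 1902 CPM, at 4696, 3257 and 2867 CPM, at 524, 502 and 1204 CPM, and at 3500, 3704 and 4645 CPM. The library numbered 3 was the lowest of the 3 for FBXW7 under 3 of the 4 titles. The titles and the treatment entries name different conditions, and these values are given for each library alone.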
